A study of Mus musculus with 2 samples.

Results

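The Hedgehog pathway was described here through 9 genes: Shh, Ptch1, Smo, Gli1, Gli2, Gli3, Sufu, Hhip and Boc. They were chosen by name among 21887 protein-coding genes, and a called peak was assigned to a gene when its summit, the point of highest read coverage, lay in the gene body or within 10 kb of either gene end. The 9 windows held 403 of the 584724 peaks of library 1 and 0 of the 348 peaks of library 2. Both libraries were chromatin immunoprecipitation sequencing (ChIP-seq) libraries made with a GFP antibody from snap-frozen heads of mouse embryos at E10.5. They carry the same labels and form 1 group. The labels name no genotype, strain, age other than E10.5, control library or protein carrying GFP, and do not say whether the libraries came from separate embryos. The series concerns functions of the core histone H3.2 in the eye. Each library was described alone, with no comparison of conditions and no replicate for a value within a library. A peak list holds no expression values, so the labelled tissue could not be checked against marker genes.

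Hedgehog signalling carries positional information in the embryo. The secreted ligand binds Ptch1, a membrane protein that otherwise holds Smo inactive. Active Smo acts through the primary cilium to release Gli transcription factors from Sufu. In the embryonic head, Shh from the ventral midline patterns the forebrain and separates the eye field into left and right eyes, and it also supports facial growth.

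Promoter sequences are shown first, because they mark where the data reach the starts of these genes and where they do not. RefSeq promoters on build GRCm38.p6 (the assembly of mm10, which the files use), from 250 bases before to 50 bases after a start site, matched 6 of the 9 genes: Ptch1, Smo, Gli2, Gli3, Sufu and Hhip. A library 1 peak touched 3 of these 6 promoters, against 37.4% of all 32851 promoters. The 3 sequences below are the 250 bases before the start, 5′ to 3′ on the gene's strand, with the bases inside a library 1 peak in capitals. The first is covered whole, the second in its last 65 bases and the third not at all. They lie at chr13:63565736-63565985 on the minus strand (Ptch1), chr6:29735247-29735496 on the plus strand (Smo) and chr13:15463473-15463722 on the plus strand (Gli3).
Ptch1: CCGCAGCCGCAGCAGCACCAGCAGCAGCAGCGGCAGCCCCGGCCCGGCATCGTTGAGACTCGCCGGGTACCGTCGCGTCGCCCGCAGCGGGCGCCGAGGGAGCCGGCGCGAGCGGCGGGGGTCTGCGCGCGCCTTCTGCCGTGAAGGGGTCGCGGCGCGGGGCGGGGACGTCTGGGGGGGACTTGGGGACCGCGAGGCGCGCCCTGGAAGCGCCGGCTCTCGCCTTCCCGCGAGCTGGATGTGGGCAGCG
Smo: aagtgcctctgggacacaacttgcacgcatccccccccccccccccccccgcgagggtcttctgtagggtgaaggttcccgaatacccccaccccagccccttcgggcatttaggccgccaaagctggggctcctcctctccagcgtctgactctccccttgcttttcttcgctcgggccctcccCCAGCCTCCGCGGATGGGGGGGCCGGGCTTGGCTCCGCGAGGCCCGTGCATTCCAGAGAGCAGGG
Gli3: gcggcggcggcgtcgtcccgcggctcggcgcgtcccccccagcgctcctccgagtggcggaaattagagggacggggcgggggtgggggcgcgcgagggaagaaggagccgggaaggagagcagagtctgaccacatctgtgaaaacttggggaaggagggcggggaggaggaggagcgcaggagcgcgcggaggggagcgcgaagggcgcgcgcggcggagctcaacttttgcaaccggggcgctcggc

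The peak over the Ptch1 promoter was 463 bp wide, with its summit 358 bp before the start, a fold enrichment over background of 2.69 and a pileup (the number of extended reads overlapping the summit) of 13 (95% Poisson interval 6.92 to 22.2). This start lies 7725 bp inside the annotated higher end of the gene. At Smo the summit lay 32 bp before the start, where 11 extended reads (5.49 to 19.7) gave a fold of 3.23. At Sufu a 238 bp peak began at the base after the start, with its summit 162 bp into the gene, a fold of 2.96 and 10 reads at the summit (4.80 to 18.4). All 3 folds were below the library 1 median of 3.90, so the promoter peaks were among the weaker ones. Fold enrichment and the p- and q-values are the authors' own, used here only to describe and rank peaks within a list. Pileups were worked back from them, and all intervals here cover counting error only.

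The promoters without a peak differed in how far away the next summit was. The nearest summit to the Hhip start was 411 bp inside the gene (fold 2.76). For Gli2 it lay 2298 bp before the start and was stronger (fold 5.66, pileup 20). For Gli3 it lay 14465 bp inside the gene (fold 4.04, pileup 14). The G and C content of the 6 promoters was 76.3% for Ptch1, 73.7% for Hhip, 71.0% for Gli3, 67.7% for Smo, 67.3% for Gli2 and 56.3% for Sufu, against a median of 52.7% for all promoters. Peaks touched 2.57% of the promoters with less than 40% G and C, 16.2% of those with 40% to 50% and 55.8% of those with 50% to 60%, the range that holds Sufu. They touched 54.0% of those with 60% to 70% and 44.3% of those with 70% or more. The letters GACCACCCA, the core sequence that Gli proteins are known to bind, were searched on both strands and occurred in 0.253% of all promoters and in none of these 6.

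All 9 genes had at least 1 summit in library 1, as did 94.8% of all protein-coding genes. The share is so high that the presence of a peak sets none of these genes apart. Density differed more. Gli1 had 7.26 summits per 10 kb of window (95% Poisson interval 4.60 to 10.9), Sufu 6.79 (5.35 to 8.50), Gli2 6.49 (5.51 to 7.59) and Shh 5.95 (3.53 to 9.40). Boc had 4.16 (2.96 to 5.68), Smo 3.92 (2.33 to 6.20) and Ptch1 2.70 (1.71 to 4.05). Hhip had 1.43 (0.815 to 2.32) and Gli3 1.19 (0.822 to 1.66). Every pair of neighbours in this order had overlapping intervals, whereas the intervals of Hhip and Gli3 lay below those of Gli1, Sufu, Gli2, Shh, Boc and Smo (Hhip and Smo by 2.32 against 2.33). Neighbouring peaks need not be independent, so the intervals may be too narrow.

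**Figure D1:**
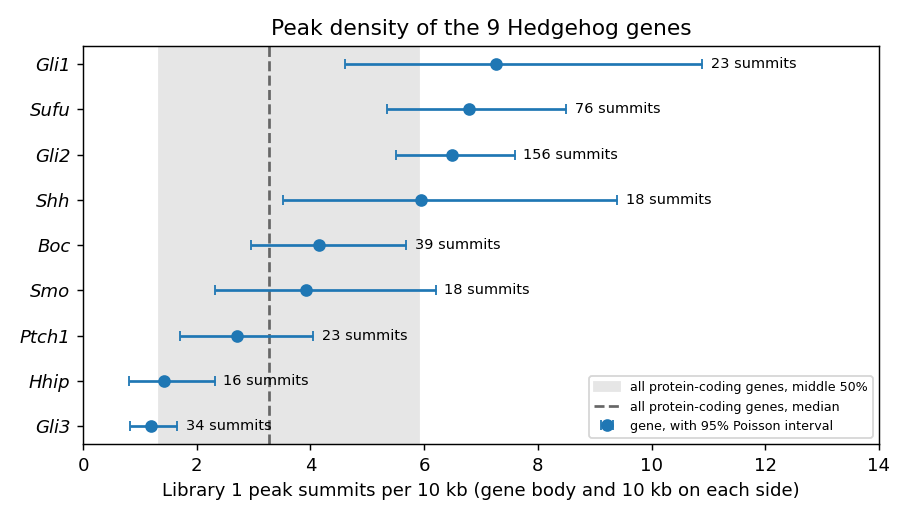
Library 1 summits per 10 kb of window (x axis) for each of the 9 genes, ordered by density, with 95% Poisson intervals as bars and the number of summits beside each. The dashed line and grey band are the median (3.26) and the middle 50% (1.34 to 5.90) of all protein-coding genes; Gli1, Sufu, Gli2 and Shh lie above the band and Gli3 below it.

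The median density of the 9 genes was 4.16 summits per 10 kb, beside 3.26 over all protein-coding genes, and 6 of the 9 were above that value. Gli1 stood at percentile 84.9 of all genes, Sufu at 81.6, Gli2 at 79.4 and Shh at 75.3. Hhip stood at 26.4 and Gli3 at 22.5, so the group spanned much of the distribution. With only the peaks of −log10 q of at least 5, the medians were 1.28 and 1.25. Restricted to the top 10% of library 1 by fold, the order turned, to 0.213 for the 9 genes and 0.284 for all genes. In that top 10%, Gli2 had 14 summits, Gli1 had 4 and each other gene 1 or 2, so this order rests on few peaks. Of the Gli1 summits, only that of the peak with a fold of 6.19 lay in the gene. The others lay in neighbouring genes. The group's higher median was thus seen over all peaks and not among the strongest, where the counts are too small to order the medians firmly.

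Strong peaks made up a smaller share of the peaks of these genes than of library 1 as a whole. Their median fold was 3.77, beside 3.90 in the whole list, and their median width was 206 bp, beside 201 bp. A −log10 q of at least 5 was reached by 137 of the 403 peaks (34.0%, Clopper-Pearson interval 29.4 to 38.8), beside 41.0% of the list. A fold of at least 5.39, reached by 10.8% of the list, was reached by 29 peaks (7.20%, 4.87 to 10.2). Both intervals lay below the share of the list, but they treat neighbouring peaks as independent and may be too narrow. Gli2 alone gave 156 of the 403 peaks. Gene by gene, the share with a −log10 q of at least 5 was above that of the list in Gli1 (47.8%) and Ptch1 (43.5%). Some of the Gli1 peaks of that strength lay in neighbouring genes. In the other genes the share ran from 27.8% (Smo) to 35.5% (Sufu). Summit pileups ran from 8 to 31 reads with a median of 14. Most peaks, 237 (58.8%), were called against a background of 2.71 extended reads, the most frequent value among them.

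**Figure D2:**
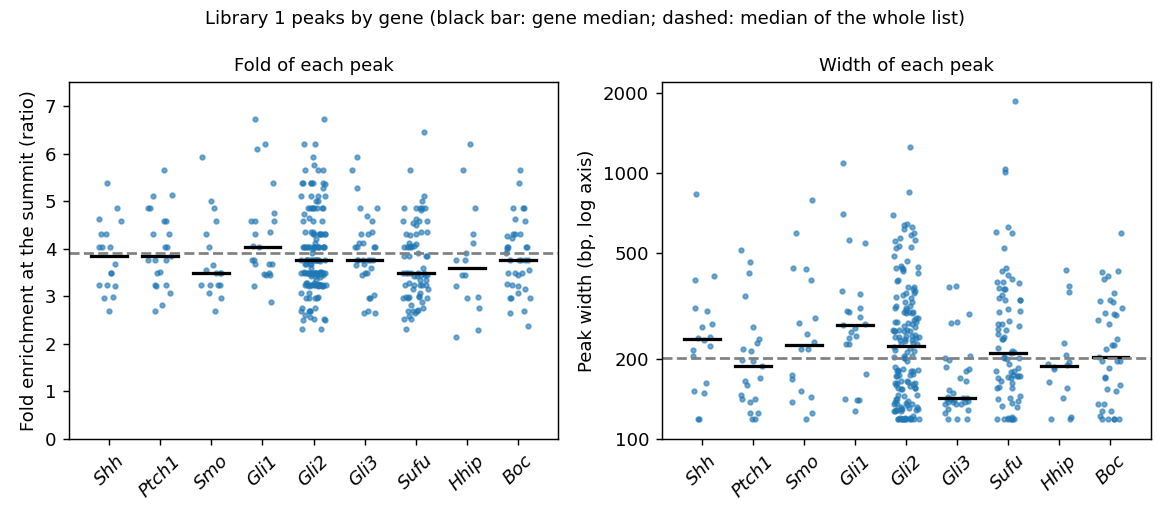
Fold enrichment (left, ratio) and width (right, bp on a log axis) of every library 1 peak of the 9 genes, 1 point per peak, with each gene's median as a black bar and the median of the whole list dashed. Gene medians of fold lie close together, from 3.50 in Smo and Sufu to 4.04 in Gli1, while median widths run from 143 bp in Gli3 to 269 bp in Gli1.

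Shh, the secreted ligand, spans chr5:28456840-28467101. Of its 18 summits, 9 lay in the gene, 3 below its lower end (the end with the smaller coordinate) and 6 above its higher end. Folds ran from 2.69 to 5.39 with a median of 3.86. The strongest peak lay outside the gene, at chr5:28468395-28468543, 1364 bp above the higher end, with a pileup of 19 (11.4 to 29.7). All 6 summits above the higher end also lay in the long non-coding RNA gene 9530036O11Rik, which overlaps that end of Shh. The peak nearest to an end had its summit 270 bp inside the higher end (chr5:28466754-28467016, fold 4.04, pileup 14). The widest, of 837 bp, lay at chr5:28446833-28447669, 9682 bp below the lower end. Promoter sequences for Shh, Gli1 and Boc were not used here.

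The wide interval beside Shh is known to hold distant enhancers of the gene for brain and face. The 725.6 kb between Shh and the next protein-coding gene, Rnf32, held 142 summits, or 1.96 per 10 kb (1.65 to 2.31). The Shh gene body itself had 9 in 10.3 kb, or 8.77 per 10 kb (4.01 to 16.6), so its interval lay above that of the stretch. The long non-coding RNA gene 9530036O11Rik, of 252.2 kb, takes up part of the stretch and had 61 summits, or 2.42 per 10 kb (1.85 to 3.11). In 4 equal parts from Shh outward, this stretch had 2.54, 1.93, 1.93 and 1.43 summits per 10 kb, with overlapping intervals in neighbouring parts. Its 3 strongest peaks shared a fold of 6.46 and lay 137, 586 and 595 kb from Shh. They spanned chr5:28604055-28604795, chr5:29052701-29053027 and chr5:29061843-29062445. Lmbr1, whose intron is known to hold the limb enhancer of Shh, lies beyond Rnf32 and outside that stretch. The Lmbr1 window had 30 summits, or 1.78 per 10 kb (1.20 to 2.54).

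Other protein-coding genes within 1 Mb of Shh had fewer summits per 10 kb than Shh. Insig1, a regulator of sterol synthesis, had 4.04 (2.02 to 7.22), Htr5a, a serotonin receptor gene, 3.90 (2.07 to 6.66), and Paxip1 3.77 (2.49 to 5.49). En2, a homeobox gene of the midbrain and hindbrain, had 2.64 (1.06 to 5.44), Cnpy1 2.62 (1.52 to 4.19) and Nom1 2.40 (1.10 to 4.55). The intervals of these 6 genes overlapped that of Shh. Dpp6 had 1.87 (1.60 to 2.17), Rbm33 1.47 (0.872 to 2.32), Rnf32 1.46 (0.629 to 2.87) and Speer4b 1.17 (0.242 to 3.43). Of these last 4, together with Lmbr1, all intervals ended below the lower bound of Shh, 3.53.

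Among the membrane proteins, Ptch1, the receptor and itself a target of the pathway, spans chr13:63508328-63573460 and had 23 summits, 18 of them in the gene. In 4 equal parts from its lower end the gene held 6, 7, 3 and 2, with intervals that all overlapped. A stretch of 12.4 kb, from 45.4 to 57.8 kb above the lower end, held none. The strongest peak lay 32.4 kb inside the gene (chr13:63540663-63540877, fold 5.66, pileup 20) and the widest, of 515 bp, 3370 bp inside the lower end (chr13:63511516-63512030, fold 5.13). The summit nearest to an end lay 833 bp inside the higher end (chr13:63572570-63572834, fold 3.23).

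Smo, the transducer held in check by Ptch1, spans chr6:29735497-29761366 and had 18 summits, 11 of them in the gene. Its strongest peak lay 6830 bp inside the higher end (chr6:29754420-29754860, fold 5.92, pileup 21) and its widest, of 795 bp, nearby at chr6:29756839-29757633 with a fold of 4.58. Between 8.87 and 17.0 kb from the lower end no summit lay. The peak at its start, chr6:29735432-29735569, is the one whose sequence is given above, and its summit was the closest of all 403 to an annotated gene end. In 4 equal parts from the lower end, the gene held 3, 1, 3 and 4 summits, with intervals that all overlapped.

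Boc, a co-receptor that helps Ptch1 bind the ligand, spans chr16:44485045-44558870 and had 39 summits, 34 of them in the gene. Equal parts from its lower end, 4 in all, held 13, 10, 4 and 7, with intervals that all overlapped. Its strongest peak lay 20.2 kb inside the higher end (chr16:44538487-44538820, fold 5.66, pileup 20), and the widest was 596 bp (chr16:44509139-44509734, fold 4.04). The 5 summits outside the gene all lay below the lower end, 4 of them in the neighbouring gene Cfap44. The summit nearest to an end was 619 bp inside the higher end (chr16:44558179-44558509, fold 3.50, pileup 12).

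Hhip, a membrane protein that binds the ligand and limits its reach, spans chr8:79965850-80058060 and had 16 summits, 12 of them in the gene. Sufu is nearly as long (91.9 against 92.2 kb) and had 68 in the gene. A stretch of 20.2 kb within Hhip, from 9.20 to 29.4 kb above the lower end, held no summit. Its few peaks were not weak throughout. The strongest (chr8:80035570-80035756) reached a fold of 6.19 on 22 reads (13.8 to 33.3), and the one 456 bp inside the lower end (chr8:79966196-79966402) had a fold of 5.66. The latter was the strongest peak within 1 kb of an end in the 9 genes, but Hhip lies on the minus strand, so its start is at the other end. The widest, of 434 bp, lay at chr8:80037753-80038186 with a fold of 4.31.

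Sufu, which binds Gli proteins in the cytoplasm, spans chr19:46396896-46488804 and had 76 summits, 68 of them in the gene. In 4 equal parts from the lower end the gene held 19, 13, 17 and 19, with intervals that all overlapped. The median spacing was 1.20 kb and the longest stretch without a summit 4.78 kb. Sufu held the widest peak of the 9 genes, 1875 bp at chr19:46485539-46487413, with a fold of 4.29. The strongest, at chr19:46415098-46415726, reached a fold of 6.46 on 23 reads (14.6 to 34.5). Its median fold, 3.50, was equal to that of Smo and the lowest of the 9.

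**Figure D3:**
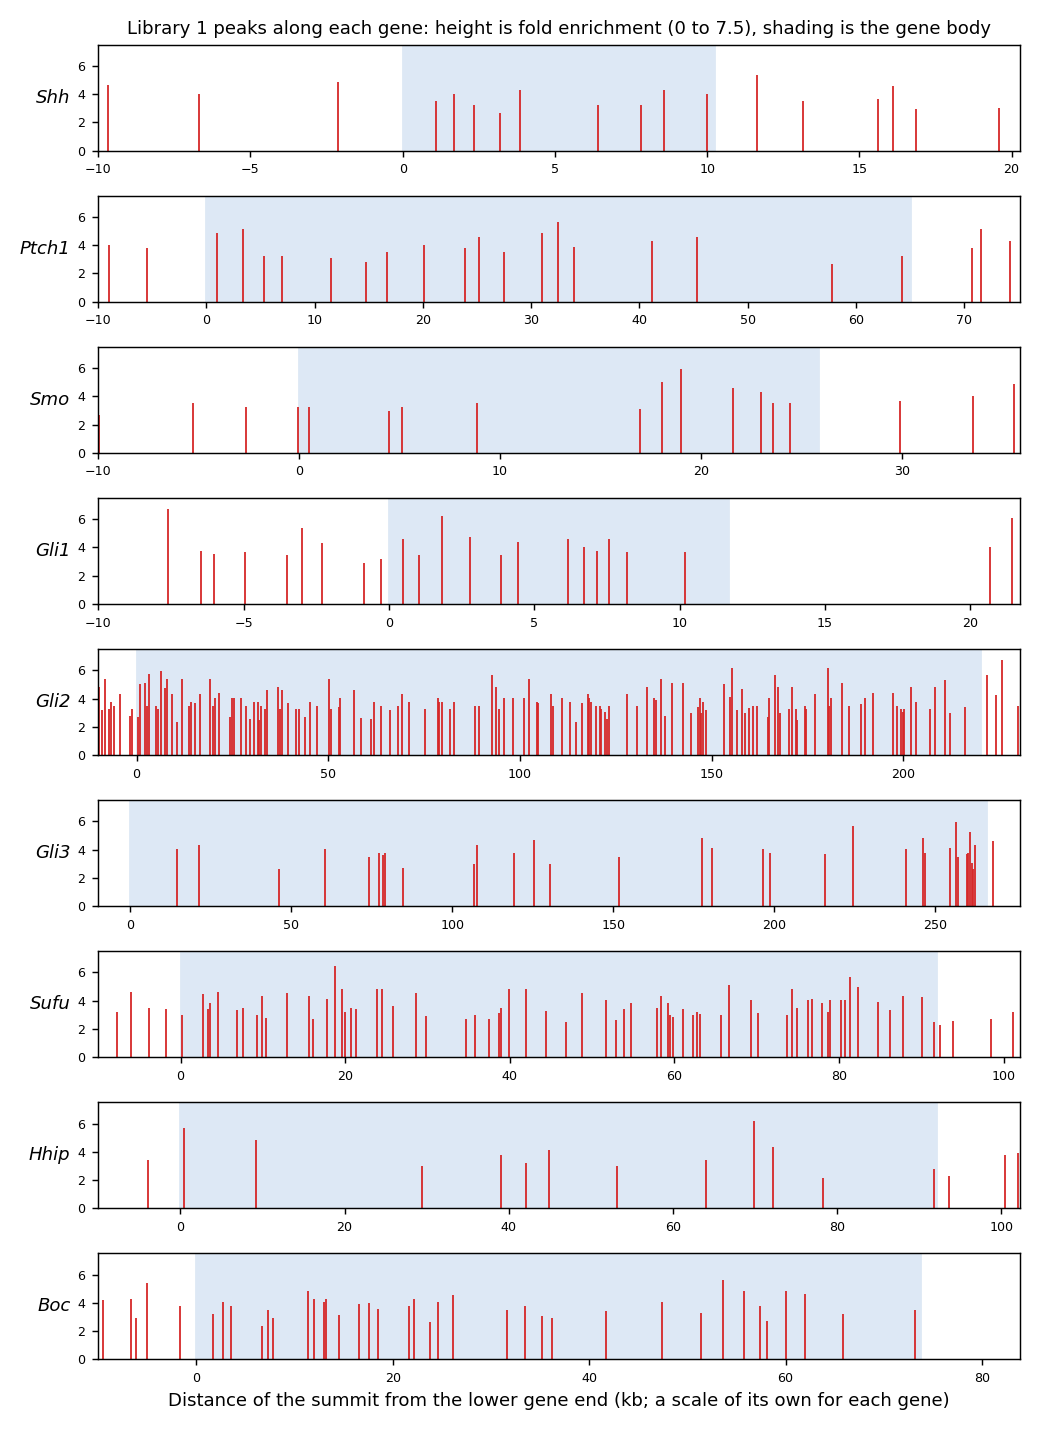
Positions of the library 1 summits along each of the 9 genes (x axis, kb from the lower gene end, with a scale of its own for each gene) with the fold enrichment as the height of each line and the gene body shaded. Gli2 and Sufu are filled along their length, whereas Gli3 and Hhip have stretches of 25.6 and 20.2 kb without a summit.

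The Gli transcription factors gave the widest contrast. Gli1, an activator that the pathway itself induces, spans chr10:127329882-127341579 and had 23 summits, 12 in the gene, 9 below the lower end and 2 above the higher end. All 11 summits outside Gli1 lay in neighbouring protein-coding genes, 9 in Arhgap9, which overlaps its lower end, and 2 in Inhbe. The strongest peak of the window, which was also its widest, was one of these (chr10:127322069-127323165, 1097 bp, fold 6.73, pileup 24) and lay in Arhgap9, 7581 bp from Gli1. The peak nearest to an end (chr10:127329561-127329813, fold 3.21) also lay in Arhgap9. In the gene body alone, Gli1 had 10.3 summits per 10 kb (5.30 to 17.9), at percentile 90.7 of all gene bodies.

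Gli2, the main activator at the start of the response, spans chr1:118834061-119054405, a length of 220.3 kb. Gli3, which acts mostly as a repressor, spans chr13:15463723-15730026, a length of 266.3 kb. Gli2 had 143 summits in the gene, or 6.49 per 10 kb (5.47 to 7.64). Gli3 had 33, or 1.24 per 10 kb (0.853 to 1.74). The density in the body of Gli2 was 5.24 times that of Gli3, and the intervals did not overlap. The contrast held among stronger peaks, with 49 summits of −log10 q of at least 5 in the Gli2 window and 12 in that of Gli3. Median folds were equal, 3.77 in each, and median widths were 224.5 bp in Gli2 and 143 bp in Gli3. Peaks covered 17.2% of the Gli2 window and 2.07% of the Gli3 window.

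Along Gli2, 4 equal parts from the lower end held 46, 28, 39 and 30 summits, with intervals that all overlapped. Its widest peak, of 1252 bp, lay 3280 bp inside the lower end (chr1:118836988-118838239, fold 5.75). The strongest lay outside the gene, 5542 bp above the higher end (chr1:119059571-119060155, fold 6.73, pileup 24). The peak nearest to an end was weak (chr1:118834406-118834641, fold 2.69, pileup 9). Along Gli3 the 4 equal parts held 4, 10, 5 and 14, with intervals that all overlapped. Of the 33 summits in the gene, 9 lay in the last 15 kb before the higher end, a cut not among the planned settings. That stretch held both the strongest peak (chr13:15720064-15720337, fold 5.92, pileup 21) and the widest (chr13:15724539-15724916, 378 bp, fold 5.28). The longest stretch without a summit, 25.6 kb, ran from 152 to 177 kb above the lower end. The summit nearest to an end lay outside Gli3, 1838 bp above the higher end (chr13:15731792-15732163, fold 4.59).

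**Figure D4:**
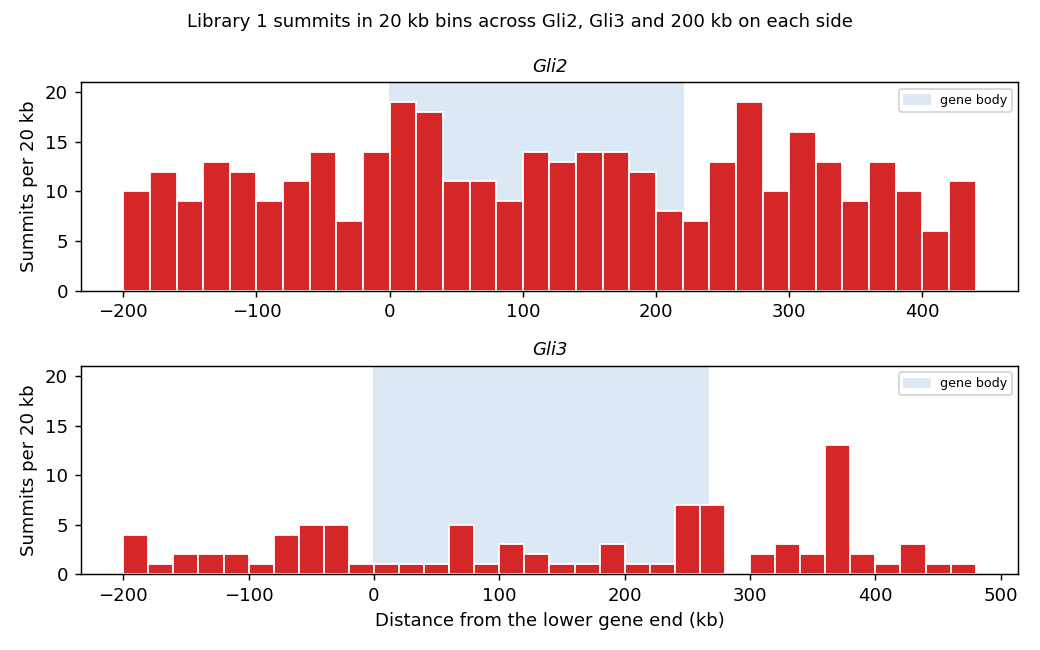
Library 1 summits per 20 kb bin (y axis) across Gli2 and Gli3 and 200 kb on each side (x axis, kb from the lower gene end; gene body shaded). Bins across Gli2 and its surroundings hold 6 to 19 summits, and those across Gli3 and its surroundings hold 0 to 7, apart from 1 bin of 13 beyond its higher end.

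The surroundings of the genes were compared with their windows side by side. Between 10 and 500 kb from the gene, Gli3 had 1.16 summits per 10 kb below and 1.02 above, and Hhip had 1.67 and 1.24. Around Gli2 these values were 3.78 and 6.35, around Sufu 4.20 and 5.71, and around Gli1 6.67 and 5.78. Taking both sides together, the 3 genes with the densest surroundings and the 3 densest windows were the same, and so were the 2 sparsest. The genes between them did not keep their order. Shh had 2.76 below and 2.10 above, beside 5.95 in its window, and Boc had 2.78 and 1.33, beside 4.16. Smo had 4.27 and 3.51 around it, beside 3.92, and Ptch1 had 2.92 and 1.84, beside 2.70. Whether a gene's own density differs from that of its region was not tested.

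At the gene ends, 8 of the 9 genes had a summit within 1 kb of either end, against 77.1% of all protein-coding genes. Gli3 was the exception. With peaks of −log10 q of at least 5 the count was 4 (Ptch1, Gli1, Gli2 and Hhip), against 44.4% of all genes. Ptch1, Gli2 and Hhip lie on the minus strand. Their summits of this kind lay 957, 788 and 456 bp inside the lower end, which is not the end that holds the start. The Gli1 summit of this kind lay 478 bp inside the lower end as well. No promoter of Gli1 was used, so its distance from the Gli1 start is not given here. Only Hhip had a summit within 1 kb of an end in the top 10% of the list by fold, against 13.5% of all genes. Within 500 bp of an end, 6 of the 9 genes had a summit (65.8% of all genes), and within 5 kb all 9 did (90.2% of all genes). None of these counts stands far from the share of all genes. Of all 403 summits, 21 lay in another protein-coding gene: 11 at Gli1, 4 at Sufu, 4 at Boc and 2 at Smo. Among the 63 summits outside the genes, those just inside the 10 kb limit (9 to 10 kb from an end) numbered 13, with folds of 2.69 to 6.10. The next kilobase outward held 6, with folds of 2.52 to 6.46.

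Other genes of the pathway had densities like those of the 9. The list held 20 genes, of which 14 were above the median of all genes, and its own median was 4.09 summits per 10 kb. All 5 genes for ligands and their release (Ihh, Dhh, Hhat, Disp1 and Scube2) were above the median of all genes, 3.26, with 3.88 to 5.31. The 3 co-receptors of the list, Cdon, Lrp2 and Gas1, were below it, with 2.92, 2.70 and 1.73, whereas the co-receptor Boc was above it, with 4.16. That median lay within the intervals of Ihh, Dhh, Hhat, Boc and the 3 co-receptors of the list, so much of this split lies within counting error. Among 12 genes of the cilium and of signal transduction, 9 were above the median of all genes. Kif7, a ciliary kinesin that regulates Gli proteins, had the highest density of the list, 7.70 (5.16 to 11.1), followed by Prkaca, a catalytic subunit of protein kinase A, with 6.44 (4.28 to 9.31). The lowest were Arl13b, a small GTPase of the cilium, with 1.63 (0.841 to 2.84), and Gas1, a co-receptor, with 1.73 (0.471 to 4.43). A summit within 1 kb of an end was present in 18 of the 20, against 77.1% of all genes, the exceptions being Gas1 and Gsk3b.

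Of 10 genes known to respond to Hedgehog signalling in the neural tube and head, 7 were above the median of all genes, and the median of the list was 4.22. Foxf1, a forkhead factor of mesenchyme, had 8.41 summits per 10 kb (5.14 to 13.0), and Pax2, a regulator of the optic stalk, 6.27 (4.89 to 7.92). Mycn, a growth regulator, had 1.94 (0.631 to 4.53) and Nkx6-1, a ventral neural tube factor, 1.96 (0.636 to 4.57). Foxa2, the floor plate factor, had 3.74 (1.71 to 7.09). All 10 had a summit within 1 kb of an end, against the same 77.1% of all genes. No gene of either list had a library 2 summit in its window.

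**Figure D5:**
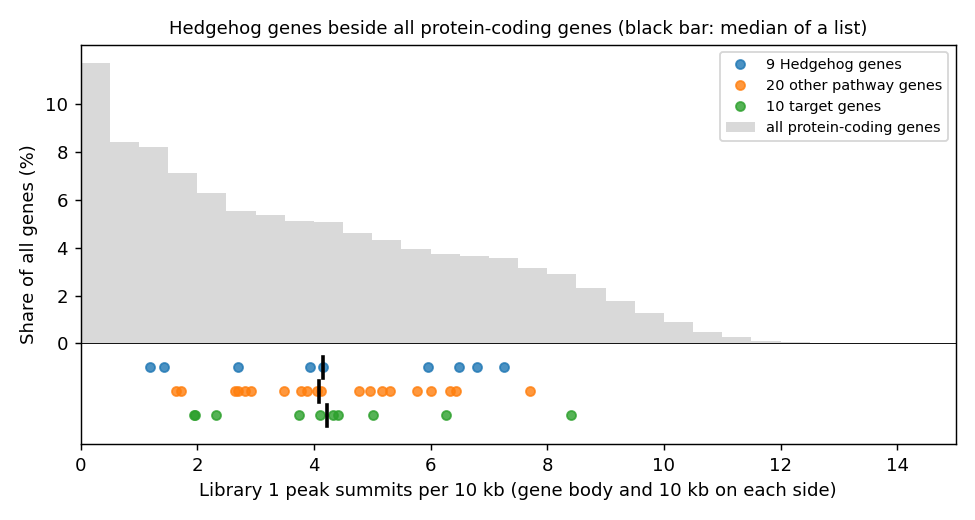
Distribution of library 1 summits per 10 kb over all protein-coding genes (grey bars, share of genes in %), with the 9 Hedgehog genes, 20 other pathway genes and 10 target genes as points below and the median of each list as a black bar. The 3 medians, 4.16, 4.09 and 4.22, lie close together and the points of all 3 lists fall within the range of the grey bars.

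In library 2, all 9 genes had 0 summits, and 0.192% of all protein-coding genes (42) had any. A count of 0 among the 127 peaks that library 2 had on assembled chromosomes allows a share of up to 2.36% of them in these windows. This limit is an approximation, 3 divided by 127, and not an exact interval. The nearest library 2 summit lay 2091 kb from Boc, 3313 kb from Smo and 6646 kb from Hhip. For the other 6 genes it lay 11076 kb (Shh) to 103867 kb (Gli3) away. None of the library 1 peaks described here therefore had a counterpart in the list of the other library, and with a list this short that is also so for nearly all genes.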

How the data were processed

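The authors deposited 1 peak list per library in narrowPeak format. Tools given in the submitters' processing notes are MACS2 2.1.0, Bowtie 1.1.2, Trimmomatic 0.33 and bcl2fastq 2.17, beside the builds mm10 and hg38, with no roles or settings; how reads were filtered, and any control, are not given in the sources used here. Each deposited peak has a score (the −log10 q times 10, truncated), a fold enrichment as a ratio, a −log10 p-value, a −log10 q-value and a summit offset. Positions are mm10, counted from 1. Gene ends came from RefSeq (GRCm38.p6); that gene table gives no exons, so exon and intron positions were not used.

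Summits were counted per gene body and 10 kb on each side and divided by window length, for all 21887 protein-coding genes (Python 3.11.15, pandas 2.3.3). Pileups were solved from the deposited fold and −log10 p-value under the MACS2 formulas, with a largest mismatch of 1.39e-05; on 1000 simulated peaks 100% were recovered. Intervals are 95% exact Poisson or Clopper-Pearson, apart from the approximate limit given for library 2. No test between groups was made, because there is 1 group. Read depth is not in the files. The genes and lists were chosen with earlier results of these data known. All 9 genes are named, each with its strongest, its widest and its end-nearest peak. A member of the pathway list is not reported here and was left out of its counts. Of each further list, the 2 densest and 2 sparsest genes are named; others named there, and the Shh intervals, were chosen after their values were seen. Alternatives were stricter peaks, other windows, overlap in place of summits, and records with equal start and end counted once.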

Additional observations from a re-analysis of the deposited data

How the results depend on the processing

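The count of summits in library 1 (403), the number of genes with a summit (9), the median density (4.16 per 10 kb) and the number of genes with a summit within 1 kb of an end (8) stayed within 1.5 times of these values with 5 kb windows, with the gene body alone, with any shared base pair in place of summits and with equal records counted once, where each applied. Within 500 bp of an end the last count was 6 (65.8% of all genes), and within 5 kb it was 9 (90.2% of all genes). With a −log10 q of at least 5, the summits numbered 137, the median density was 1.28 and 4 genes had a summit at an end. In the top 10% of each list by fold these values were 29, 0.213 and 1 (Hhip; 13.5% of all genes had such a summit at an end). All 9 genes kept a summit under each of these settings, and library 2 gave 0 throughout. For single genes, the gene body alone lowered the count by over 1.5 times in 3: Shh (9), Smo (11) and Gli1 (12). Gli1 had the highest density and Gli3 the lowest under all 7 settings of the windows. The Gli1 window takes in parts of Arhgap9 and Inhbe, which held some of its summits of −log10 q of at least 5. In the top 10% by fold, only the summit with a fold of 6.19 lay in Gli1 itself. No paired analysis was possible because there is 1 group and no contrast. Leaving out a replicate was not run, since each library was described alone. Pileups of 8 to 31 reads limit how well single peaks can be ranked.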
